A study of Mus musculus with 15 samples.

Results

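Genes that differ between T cell receptor stimulation with cyclosporin A and mock stimulation were read from 6 of the 15 arrays of the series. Of these, 3 were of anti-TCR with cyclosporin A and 3 of mock stimulation. The cells were A.E7, a mouse CD4 T helper cell clone grown in culture, so the values describe 1 clone. The treatments, as the array titles name them, were CSA (anti-TCR with cyclosporin A), Anergic (anti-TCR alone), PKCi (anti-TCR with a protein kinase C inhibitor of unstated name), Combo (anti-TCR with the 3 inhibitors rapamycin, PD98059 and SB203580) and Mock (mock stimulated). For each treatment mRNA from 2, 4 and 6 h was pooled, and each pool was hybridised to 3 chip designs, A, B and C, with different probe sets, 1 array for each treatment and design. There is therefore no replicate, no SD over cultures and no test, and precision is limited by how few arrays there are. The labels do not give doses, the antibody or how mock stimulation was done, and whether calcineurin was fully blocked was not measured here.

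Engagement of the T cell receptor opens several signalling branches. Calcium activates the phosphatase calcineurin, which dephosphorylates NFAT transcription factors so that they enter the nucleus, and cyclosporin A, bound to cyclophilin, blocks calcineurin. Diacylglycerol acts through protein kinase C and RasGRP on the NF-kB and ERK branches, and PI3 kinase acts on mTOR and Foxo factors. In T helper cells calcineurin is known for the induction of cytokine genes, and stimulation of the receptor without a costimulus leads to anergy, a state of poor response to later stimulation. The comparison of CSA with mock is meant to show what the receptor still changes with the calcineurin branch blocked. No array had cyclosporin A without anti-TCR, so an effect of the receptor and an effect of the drug itself cannot be told apart here.

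Each probe set was compared as the log2 ratio of CSA over mock, after values below the floor of its chip type were raised to that floor. The floor was the median of all values of the 5 arrays of a chip type, 51.1 on chip type A, 69.5 on B and 55 on C, in units of array intensity. A probe set was measured where the brighter of the CSA and mock values reached 4 times the floor, and 8679 of 36701 probe sets did. A probe set below that minimum with mock was thus measured only through a higher CSA value and could not fall. The reverse holds for those below it with CSA. Both limits apply to the counts and medians of the lists below, also where they are not repeated. Each gene, meaning 1 symbol, was read on the probe set whose mean over the 5 treatments was highest; 5697 of 15964 genes were measured, and for 10267 that probe set reached the minimum in neither array. The words rose and fell are used where the CSA and mock values lay at least 2-fold apart. "At least" before a fold means that the floor stood in for the dimmer value, and a letter such as r or f marks a probe set whose name carries a suffix for shared sequence or a broken probe selection rule. A value given for a second or further probe set is its log2 ratio of CSA over mock, unless levels are stated. Levels are given as array intensity and are compared between treatments only, never between genes.

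Of the 5697 measured genes, 494 (8.67%) rose and 445 (7.81%) fell, and these shares are the background for every list below. The larger changes ran mostly upward: 137 genes (2.4%) were at least 4-fold higher with CSA and 32 (0.562%) at least 4-fold lower. The median log2 ratio over all measured genes was -0.07, with quartiles of -0.46 and 0.34. Among the genes that rose, the mock value of 30 lay at or below the floor, and among those that fell, the CSA value of 8 did. Over all chip types 851 probe sets rose (9.81%) and 656 fell (7.56%), and of the 1132 measured probe sets without a gene symbol 83 rose (7.33%) and 66 fell (5.83%). By chip type, 353 probe sets rose and 266 fell of 3240 on A (10.9% and 8.21%), 282 and 221 of 2600 on B (10.8% and 8.5%), and 216 and 169 of 2839 on C (7.61% and 5.95%).

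**Figure D1:**
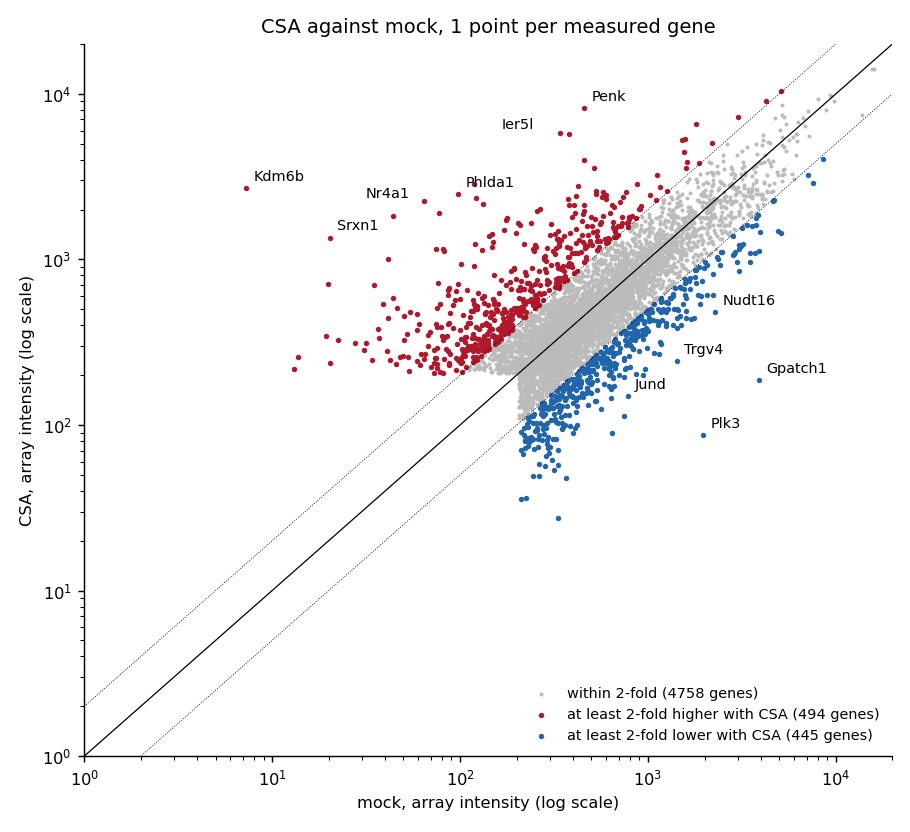
Array intensity with CSA (vertical, log scale) against mock (horizontal, log scale), 1 point per measured gene (5697 genes, values below 1 drawn at 1); the solid line marks equal values and the dotted lines 2-fold. The 494 genes in red were at least 2-fold higher with CSA and the 445 in blue at least 2-fold lower; Kdm6b and Srxn1 lie far left because their mock values were below the floor, and Plk3 and Gpatch1 lie furthest below the line.

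The 2% trimmed means of the CSA and mock arrays differed by at most 0.218% within a chip type, as arrays scaled to a common level would, so a shift of all genes together could not be seen. On each array 17.4% to 22.8% of the probe sets were at 4 floors or more. At the bright end of chip type A the arrays stood apart: the 99th percentile was 2202 with CSA and 2717 with mock, and the highest value 3583 with CSA and 5806 with mock. On chip type B the 99th percentile was 1638 with CSA and 1693 with mock, and on C it was 2747 with CSA and 2717 with mock. Agreement was judged from genes that have probe sets on more than 1 chip type. Over 1125 pairs the technical SD of a log2 ratio was 0.65, which covers array and probe differences in the same RNA pools and not cultures. The 2-fold rule is a log2 ratio of 1, not far beyond that SD. A gene that rose or fell by little more than 2-fold can therefore owe its call to this spread.

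Of 80 genes that rose and were measured on at least 2 chip types, all probe sets of 54 were higher with CSA and all those of 22 at least 2-fold higher. Of 35 such genes that fell, all probe sets of 32 were lower and all those of 10 at least 2-fold lower. For rises of at least 4-fold, 17 of 22 were higher on every probe set, and 11 were at least 2-fold higher on each. None of the 32 genes at least 4-fold lower on its brightest probe set was measured on a second chip type, so the large falls have no such check.

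**Figure D2:**
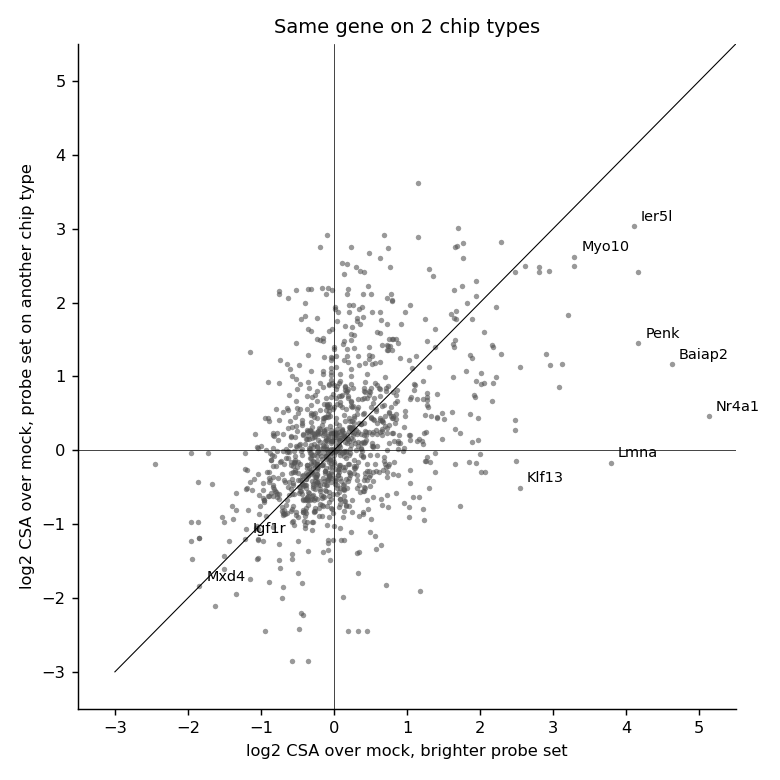
log2 ratio of CSA over mock for 1125 pairs of measured probe sets that read 1 gene from 2 chip types, the brighter probe set on the horizontal axis and the other on the vertical axis; the diagonal marks equal ratios, and a ratio with a value below the floor is drawn at its bound. The labelled pairs of Myo10, Mxd4 and Igf1r lie near the diagonal. Those of Ier5l (4.10 and 3.03), Baiap2 (4.62 and 1.16) and Penk (4.17 and 1.45) are high on both chip types but further from it. The second probe sets of Nr4a1 (0.46), Lmna (-0.17) and Klf13 (-0.51) lie near or below 0.

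Immediate early transcription factors, which cells induce within minutes to hours from factors already present, led the response. Of 28 genes in the list 27 were on the arrays and 20 were measured. Among these 15 rose and 1 fell, with a median log2 ratio of 2.86, against 8.67% of all measured genes that rose and a median of -0.07. Members such as Nr4a1, Egr3 and Maff were below the minimum with mock, so they were measured through CSA alone and could not fall. The promoters of 5 genes of the response are shown because they hold motifs of Creb, serum response factor or AP-1. Capitals mark the pentamer TGACG, the core of the cyclic AMP response element bound by Creb and Atf factors, on either strand (Nr4a1, Nr4a3), the whole element TGACGTCA (Maff), the CArG box bound by serum response factor (Egr2), and the AP-1 site TGAGTCA or TGACTCA (Srxn1). Each window holds 250 bases before to 50 bases after a transcript start, plus strand, from RefSeq on build GRCm38.p6.
Nr4a1, chr15:101266596-101266895: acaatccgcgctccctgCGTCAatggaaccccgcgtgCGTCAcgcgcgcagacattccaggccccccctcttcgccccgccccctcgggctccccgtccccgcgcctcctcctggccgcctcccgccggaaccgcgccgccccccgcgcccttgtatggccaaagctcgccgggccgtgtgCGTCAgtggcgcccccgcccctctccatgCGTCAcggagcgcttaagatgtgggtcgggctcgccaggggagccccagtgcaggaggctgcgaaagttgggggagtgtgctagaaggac
Nr4a3, chr4:48045055-48045354: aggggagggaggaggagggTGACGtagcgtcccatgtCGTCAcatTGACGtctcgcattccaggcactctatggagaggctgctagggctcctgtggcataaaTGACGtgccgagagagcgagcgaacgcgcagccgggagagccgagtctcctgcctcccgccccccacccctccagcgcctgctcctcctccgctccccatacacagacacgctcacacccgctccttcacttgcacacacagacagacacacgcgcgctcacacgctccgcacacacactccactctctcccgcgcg
Egr2, chr10:67537316-67537615: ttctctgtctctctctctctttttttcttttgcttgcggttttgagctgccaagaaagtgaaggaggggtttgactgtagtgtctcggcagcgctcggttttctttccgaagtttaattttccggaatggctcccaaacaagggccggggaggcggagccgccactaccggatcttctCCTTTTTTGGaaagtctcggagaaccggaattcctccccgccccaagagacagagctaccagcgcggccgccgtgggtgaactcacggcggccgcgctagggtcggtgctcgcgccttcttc
Maff, chr15:79347270-79347569: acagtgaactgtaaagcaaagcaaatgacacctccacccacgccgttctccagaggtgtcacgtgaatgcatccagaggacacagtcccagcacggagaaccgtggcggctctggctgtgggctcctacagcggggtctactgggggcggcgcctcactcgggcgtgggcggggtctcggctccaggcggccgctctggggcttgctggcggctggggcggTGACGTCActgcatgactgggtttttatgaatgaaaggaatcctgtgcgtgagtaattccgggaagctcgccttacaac
Srxn1, chr2:152105274-152105573: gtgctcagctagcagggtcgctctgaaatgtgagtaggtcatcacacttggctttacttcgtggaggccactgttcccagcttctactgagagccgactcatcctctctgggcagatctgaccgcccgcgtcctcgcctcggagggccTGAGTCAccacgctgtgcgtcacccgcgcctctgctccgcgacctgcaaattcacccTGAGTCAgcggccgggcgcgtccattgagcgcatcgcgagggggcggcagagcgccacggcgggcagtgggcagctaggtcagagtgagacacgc

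Nr4a1 and Nr4a3 held the pentamer at 4 places each. In Nr4a1 the matches began 233, 213, 69 and 40 bases before the transcript start. Of the 15 immediate early genes that rose, 11 matched a RefSeq promoter, with 20 windows in all; 15 of these windows (75%), from 9 genes, held the pentamer, against 20.8% of all 32851 promoters and 32.7% of the 5993 promoters of measured genes. The NFAT core GGAAA was present in 40% of the 20 windows, from 4 genes. It stood in 61.3% of all promoters and 58.7% of the promoters of measured genes. The CArG box stood in 20% of the windows, all from Egr2, and in 1.63% of all promoters. The NF-kB site stood in 30% of the windows and 8.46% of all promoters, TGACGTCA in 5% and 1.79%, and the AP-1 site in 5% and 5.2%. The pentamer is part of TGACGTCA, so these counts overlap, windows of 1 gene overlap too, and a match describes letters and not binding. Over all 137 genes at least 4-fold higher, 107 matched with 142 windows. Of these windows the pentamer stood in 33.1%, the NFAT core in 55.6% and the AP-1 site in 4.23%, so the NFAT share was close to that of measured genes.

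Nr4a1 and Nr4a3 encode orphan nuclear receptors that receptor signalling induces in T cells. Nr4a1 read 2244 with CSA, 3002 with anti-TCR alone, 77.3 with PKCi and 2205 with Combo, against 64 with mock (35.1-fold). It was thus high with CSA, anti-TCR alone and Combo, and low with PKCi and mock. A second Nr4a1 probe set, on chip type B, gave 449.6 with CSA against 327 with mock (log2 ratio 0.46), so the rise rests on the probe set of chip type A. Nr4a3 read 1160.2 with CSA, 4965 with anti-TCR alone, 149 with PKCi and 2676 with Combo, against 74.4 with mock (15.6-fold), and its CSA value was the lowest of the 3 high arms. Nr4a2, the remaining family member, read 122 with CSA, 2536 with anti-TCR alone, 127 with PKCi and 1245 with Combo, against 22.7 with mock, which is below the minimum for CSA and mock, so it was not measured in this comparison.

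Of the 6 Egr and Nab genes, all measured, 5 rose and 0 fell (median log2 ratio 3.23). With mock, Egr1, Egr2, Egr3 and Nab2 lay below the minimum, so these genes could not fall. Egr1, Egr2, Egr3 and Egr4 are zinc finger factors, Egr2 and Egr3 are linked to T cell anergy, and Nab1 and Nab2 are corepressors that bind Egr proteins. Egr3 read 2359 with CSA, 4354 with anti-TCR alone, 72 with PKCi and 3470.4 with Combo, against 121 with mock (19.4-fold), and a second probe set gave a log2 ratio of at least 2.47. Egr2 read 582 with CSA, 3325 with anti-TCR alone, 41.7 with PKCi and 2116 with Combo, against 43.8 with mock (at least 11.4-fold). For Egr1 the values were 675 with CSA, 346 with anti-TCR alone, 13.4 with PKCi and 639 with Combo, against 86.9 with mock (7.76-fold). With CSA, Egr2 and Egr3 lay below and Egr1 above anti-TCR alone, and all 3 were near or below the floor with PKCi. Nab2 rose 14.2-fold, to 1153 with CSA, 1987 with anti-TCR alone, 229 with PKCi and 1073 with Combo, against 81 with mock. Egr4, on an r probe set, read 1112 with CSA against 442 with mock (2.52-fold), and its second probe set gave a log2 ratio of 0.36. Nab1 read 1120 with CSA against 812 with mock (log2 ratio 0.46) and did not pass the 2-fold rule.

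Ier5l and Ier2 belong to the immediate early response family of small nuclear proteins, of which 2 of 3 measured members rose. Ier5l read 5812 with CSA, 265 with anti-TCR alone, 3103 with PKCi and 412 with Combo, against 338 with mock (17.2-fold). Its probe set on chip type B gave 5103 with CSA, 485 with anti-TCR alone, 1693 with PKCi and 685 with Combo, against 623 with mock (log2 ratio 3.03). On both chip types Ier5l was therefore high with CSA and PKCi and close to mock with anti-TCR alone and Combo. Ier2 read 2763 with CSA, 2989.7 with anti-TCR alone, 1218 with PKCi and 1701 with Combo, against 427 with mock (6.48-fold), above mock in every stimulated arm. Ier3 read 752 with CSA, 3532 with anti-TCR alone, 481 with PKCi and 2408 with Combo, against 407 with mock (log2 ratio 0.89), short of 2-fold with CSA and well above it with anti-TCR alone.

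Subunits of AP-1, the dimeric factor of Fos, Jun, Atf and Maf proteins, followed. Fosl2, a Fos family subunit, read 5719.5 with CSA, 7009.8 with anti-TCR alone, 3956 with PKCi and 3721 with Combo, against 378 with mock (15.1-fold; a second probe set gave 3.17). Maff, a small Maf protein, read 1003 with CSA, 472 with anti-TCR alone, 34.2 with PKCi and 248 with Combo, against 41.1 with mock (at least 14.4-fold), highest with CSA. Junb (i probe set), Atf3 (f probe set) and Fosb, chosen after their values were seen, rose 9.75-fold, 6.83-fold and 2.92-fold, and Csrnp1, a nuclear factor chosen in the same way, 5.27-fold. Jund, the Jun family subunit usually present in resting cells, was the member that fell: 149 with CSA, 635 with anti-TCR alone, 867 with PKCi and 1205 with Combo, against 780 with mock (5.22-fold lower with CSA), so only the CSA array of chip type A was low. Crem, which encodes activators and repressors of cyclic AMP responsive genes, rose 9.42-fold on an s probe set, to 723 with CSA, 252 with anti-TCR alone, 1139 with PKCi and 315 with Combo, against 76.7 with mock. Fos read 126 with CSA against 17.1 with mock, Jun 173 with CSA against 35.1 with mock, and Myc 152 with CSA against 126 with mock, all below the minimum of 204.4. Klf6 (-0.30), Klf10 (0.13) and Bhlhe40 (0.48) did not reach 2-fold on the log2 scale.

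**Figure D3:**
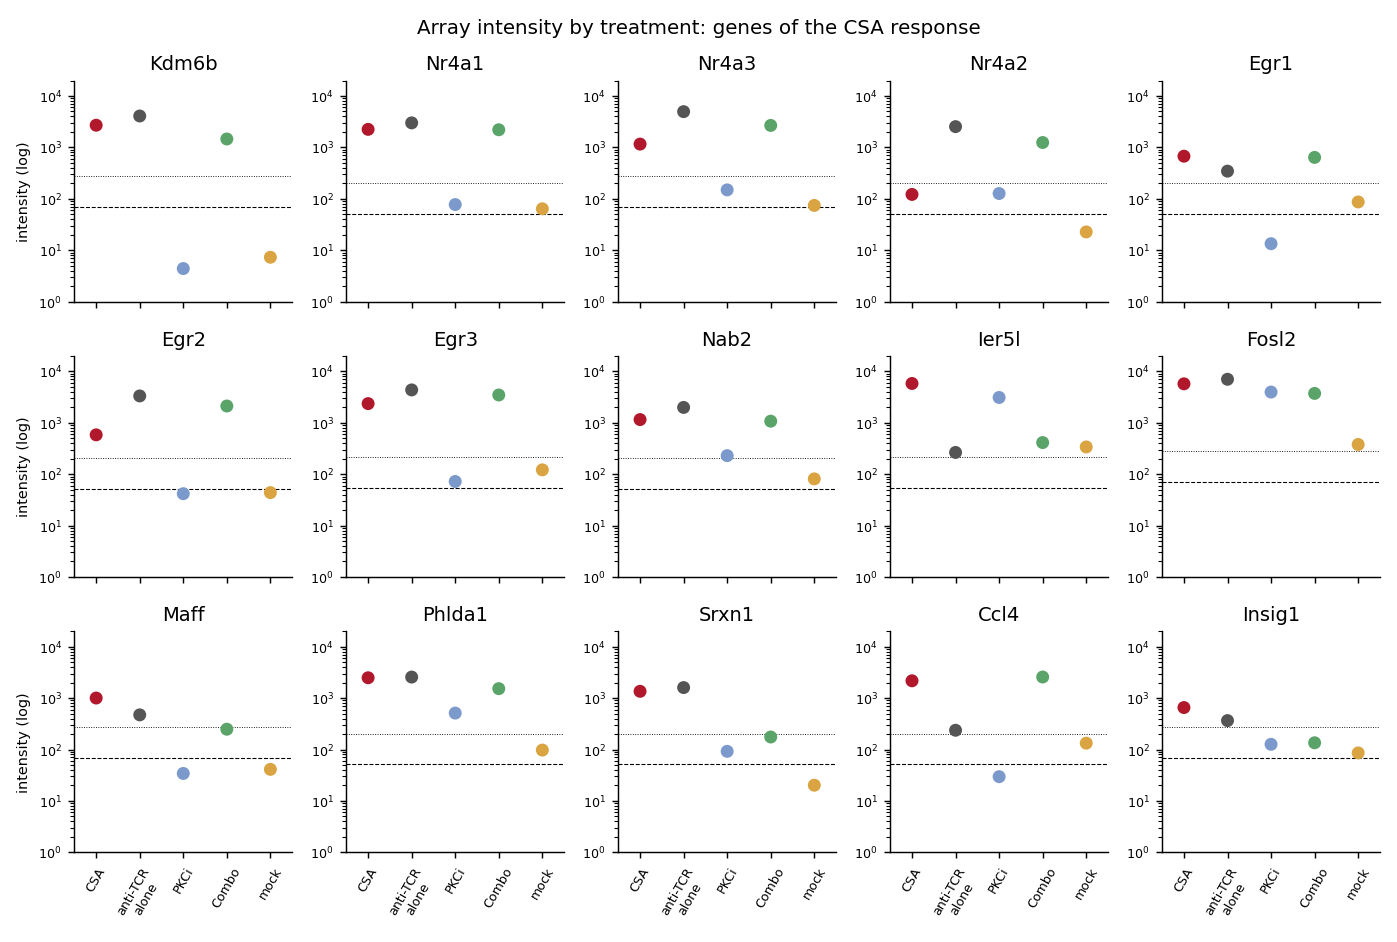
Array intensity (log scale) of 15 genes in each of the 5 treatments, 1 point per array and CSA at the left of each panel; the dashed line is the floor of the chip type and the dotted line the minimum of 4 times the floor. Many panels are high with CSA, anti-TCR alone and Combo and low with PKCi and mock. Ier5l is high with CSA and PKCi, Ccl4 with CSA and Combo, and Nr4a2 with anti-TCR alone and Combo. Fosl2 is high in every stimulated arm, and Srxn1, Insig1 and Maff lie below the minimum with Combo.

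With values raised to the floor, the gene with the largest ratio was Kdm6b, a demethylase of lysine 27 of histone H3. It read 2701 with CSA, 4085 with anti-TCR alone, 4.4 with PKCi and 1458 with Combo, against 7.3 with mock (at least 38.9-fold), so PKCi and mock lay far below the floor of 69.5. Rhbdf2, an inactive rhomboid protein needed for release of TNF from cells, read 1824 with CSA, 3736 with anti-TCR alone, 69.5 with PKCi and 1073 with Combo, against 43.8 with mock (at least 26.2-fold). Srxn1, sulfiredoxin, which restores oxidised peroxiredoxins, read 1355 with CSA, 1602 with anti-TCR alone, 92.2 with PKCi and 175 with Combo, against 20.2 with mock (at least 26.5-fold). With Combo it was over the floor but below the minimum, unlike Kdm6b and Rhbdf2. Srxn1 was alone among the redox genes: of 21 measured 1 rose, and 1, glutaredoxin (Glrx), fell 2.38-fold, with a median log2 ratio of -0.04. Rrad, a small GTPase of the RGK group, read 2865 with CSA, 2049.7 with anti-TCR alone, 688 with PKCi and 377 with Combo, against 119 with mock (24.1-fold). Penk, the precursor of enkephalins, read 8211 with CSA, 9669 with anti-TCR alone, 636 with PKCi and 8225 with Combo, against 457 with mock (18-fold) on an f probe set, and its further probe sets, with suffixes, gave log2 ratios of 1.45 and at least 2.41. Baiap2, an adaptor of the actin cytoskeleton, read 1911 with CSA, 1334 with anti-TCR alone, 579 with PKCi and 965 with Combo, against 77.6 with mock (24.6-fold), and its probe set on chip type A gave 1.16.

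Feedback inhibitors and targets of the ERK pathway rose in 7 of 11 measured cases and fell in 0 (median log2 ratio 1.79). Of the 7, Phlda1, Errfi1, Rasa2 and Dusp6 lay below the minimum with mock, so they were measured through CSA alone and could not fall. Phlda1, a pleckstrin homology protein induced by growth signals, read 2487 with CSA, 2566 with anti-TCR alone, 511 with PKCi and 1528 with Combo, against 97.5 with mock (25.5-fold). Errfi1, an inhibitor of EGF receptor family kinases, read 335 with CSA, 379 with anti-TCR alone, 49.1 with PKCi and 101 with Combo, against 37.1 with mock (at least 6.55-fold; its second probe set at least 2.20). Rasa2, a GTPase activating protein for Ras, read 1155 with CSA, 1081 with anti-TCR alone, 401 with PKCi and 501 with Combo, against 246 with mock (4.7-fold; its second probe set 0.94). These 3 genes were lower with PKCi than with CSA, anti-TCR alone or Combo. The other 4 that rose, chosen after their values were seen, were the MAP kinase phosphatase Dusp6, at 218 with CSA and 634 with anti-TCR alone against 13.1 with mock (at least 4.27-fold), Spred1 (3.61-fold), an inhibitor of Ras activation, and the phosphatases Dusp1 (3.46-fold) and Dusp5 (3.41-fold). Dusp7 read 465 with CSA against 794 with mock (log2 ratio -0.77). Spry1, a Sprouty inhibitor, read 81.3 with CSA and 3428 with anti-TCR alone, against 41.7 with mock, and was not measured with CSA and mock.

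Of 13 measured NF-kB subunits, inhibitors and targets, 3 rose and 1 fell, and the median log2 ratio was 0.04. Nfkbiz, a nuclear IkB protein, read 699.9 with CSA, 378 with anti-TCR alone, 36.5 with PKCi and 137 with Combo, against 35 with mock (at least 13.7-fold). Bcl3, another nuclear IkB protein, rose 6.85-fold, to 356 with CSA, 762 with anti-TCR alone, 160 with PKCi and 829 with Combo, against 52 with mock, and the subunit Relb 3.87-fold, to 293 with CSA, 425 with anti-TCR alone, 256 with PKCi and 525 with Combo, against 75.7 with mock. Nfkbiz was thus higher with CSA than in any other arm, whereas Bcl3 and Relb were highest with Combo. The signalling adaptor Traf1 fell 2.81-fold, and Birc3 (-0.74) and Bcl10 (-0.57) did not reach 2-fold.

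Few genes of the cytokine and chemokine list were bright in either array: 8 of 26 reached the minimum, and of these 5 rose and 0 fell (median log2 ratio 1.62). The list leaves out Tgfb1 (log2 ratio 3.32) and Vegfa (2.75), which rose and were chosen after their values were seen. Ccl4, Ccl3, Tnfsf11 and Ifng were below the minimum with mock and were measured through CSA alone, so they could not fall. The chemokine Ccl4 read 2171 with CSA, 237 with anti-TCR alone, 29.6 with PKCi and 2571 with Combo, against 133 with mock (16.3-fold), so it was high with CSA and Combo. Its relative Ccl3 read 328 with CSA, 1363 with anti-TCR alone, 8.4 with PKCi and 2749.5 with Combo, against 50.5 with mock (at least 6.42-fold), lower with CSA than with anti-TCR alone or Combo. Tnf read 892 with CSA, 133 with anti-TCR alone, 341 with PKCi and 1786 with Combo, against 335 with mock (2.67-fold); anti-TCR alone was the lowest arm. Tnfsf11, which encodes RANK ligand, read 569 with CSA, 2435 with anti-TCR alone, 352 with PKCi and 1481 with Combo, against 93.8 with mock (6.07-fold). Ifng, the Th1 cytokine gene, read 538 with CSA, 3261 with anti-TCR alone, 84.1 with PKCi and 1273 with Combo, against 151 with mock (3.56-fold). Both were still above mock with CSA but below anti-TCR alone. Fasl (0.38), Csf1 (0.07) and Ltb (0.04) did not reach 2-fold on the log2 scale. The chemokine Xcl1 read 42.8 with CSA and 2472 with anti-TCR alone, against 9.5 with mock, so both values of this comparison lay below the floor. Il2 read 1.2 with CSA, 2.6 with anti-TCR alone and 1.3 with mock; a dead probe set would read the same, and its expression was not determined.

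Receptors on the surface of activated T cells split. Of the 12 that were measured, 3 rose and 1 fell, and the median log2 ratio was 0.20. Il2ra, the alpha chain of the IL-2 receptor, read 258 with CSA, 164 with anti-TCR alone, 68.9 with PKCi and 56.8 with Combo, against 53.1 with mock (4.86-fold). The early activation marker Cd69 read 280.3 with CSA, 118 with anti-TCR alone, 34.8 with PKCi and 112 with Combo, against 40.7 with mock (at least 4.03-fold). The hyaluronan receptor Cd44 read 6533 with CSA, 2970.3 with anti-TCR alone, 1812 with PKCi and 2696 with Combo, against 1795 with mock (3.64-fold; 2.23 on a second probe set). Each of the 3 was highest with CSA. Ctla4, an inhibitory receptor, read 171 with CSA, 373 with anti-TCR alone, 1628 with PKCi and 732 with Combo, against 659.6 with mock (3.85-fold lower), and was lowest with CSA. The list of anergy and negative regulation had 21 measured genes, 7 of them up and 3 down (median 0.80). That list holds Nr4a1, Egr3 and Egr2, and its lowest members were Dgka, Ctla4 and Socs2 (2.08-fold lower). Dgka, the kinase that turns diacylglycerol into phosphatidic acid, read 74 with CSA, 125 with anti-TCR alone, 352 with PKCi and 140.3 with Combo, against 302 with mock (4.08-fold lower).

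Genes of calcineurin, the NFAT factors and their regulators were mostly level, with 1 of 14 measured genes up and 1 down and a median log2 ratio of -0.05. Ppp3r1, the regulatory subunit of calcineurin, rose 2.07-fold, with 742 with CSA, 1035 with anti-TCR alone, 634 with PKCi and 675 with Combo, against 359 with mock, but its second probe set gave -0.26. Cabin1, a protein that binds and inhibits calcineurin, fell 2.4-fold. The catalytic subunits Ppp3ca (0.50, i probe set), Ppp3cb (0.03) and Ppp3cc (-0.25) did not reach 2-fold on the log2 scale. Nfatc1, the NFAT gene known to be induced by its own product, read 223 with CSA, 2236 with anti-TCR alone, 277 with PKCi and 820.2 with Combo, against 342 with mock (log2 ratio -0.62; -1.13 on a second probe set), so only anti-TCR alone and Combo exceeded mock. Nfatc2 read 1815 with CSA, 423 with anti-TCR alone, 795 with PKCi and 438 with Combo, against 1149.9 with mock (0.66), and Nfatc3 (-0.10), Nfat5 (-0.67) and Nfatc4 (-0.57, s probe set) also stayed within 2-fold of mock. Rcan1, a calcineurin inhibitor and NFAT target, read 73.6 with CSA against 71.7 with mock and was not measured.

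Cyclic AMP and G protein signalling genes moved both ways. Of the 16 that were measured, 5 rose and 4 fell, and the median log2 ratio was -0.28. Rgs16, a GTPase activator for G protein alpha subunits, read 1244 with CSA, 1607 with anti-TCR alone, 98.6 with PKCi and 1844 with Combo, against 119.8 with mock (10.4-fold; at least 4.04 on a second probe set), and Ptger4, a receptor for prostaglandin E2, 810.4 with CSA, 1286 with anti-TCR alone, 259 with PKCi and 875 with Combo, against 151 with mock (5.36-fold). Both were low with PKCi and mock. Rgs2, chosen after its values were seen, rose 3.12-fold, to 2207 with CSA, 375 with anti-TCR alone, 1835 with PKCi and 608 with Combo, against 707 with mock, and was highest with CSA and PKCi, as Crem was. Pde4b, a cyclic AMP phosphodiesterase, rose 2.23-fold and Rgs10 fell 2.17-fold (-0.26 on a second probe set), both chosen after their values were seen. Rgs19 (r probe set), Creb1 and the cyclic AMP phosphodiesterase Pde7a fell 2.32-fold, 2.31-fold and 2.29-fold, and the second probe sets of Creb1 (-0.53) and Pde7a (-0.52) did not reach 2-fold. Among suppressors of cytokine signalling, Socs1 rose 4.87-fold and Cish 3.18-fold, and 1 of the other 3 measured, Socs2, fell.

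Genes of sterol synthesis rose in part. Of 19 measured sterol and fatty acid genes, 7 rose and 0 fell (median log2 ratio 0.42). Among the 7, Insig1, Idi1 and Cyp51 lay below the minimum with mock and could not fall. Insig1, a sterol sensor of the endoplasmic reticulum whose gene is a target of SREBP, read 655 with CSA, 365 with anti-TCR alone, 126 with PKCi and 135 with Combo, against 85.8 with mock (7.64-fold). Idi1, an isomerase of the isoprenoid pathway, read 892 with CSA, 378 with anti-TCR alone, 52.8 with PKCi and 85.9 with Combo, against 194 with mock (4.6-fold). Cyp51, the lanosterol demethylase, read 525 with CSA, 307 with anti-TCR alone, 56.8 with PKCi and 92.9 with Combo, against 123 with mock (4.26-fold). For these 3 genes CSA was the highest of the 5 arms. Insig1 stayed within 2-fold of mock with PKCi and Combo, and Idi1 was lower than mock in both. The other 4, chosen after their values were seen, were Hmgcs1 (3.58-fold), Msmo1 (3.01-fold), Sqle (3-fold) and, on an i probe set, Sc5d (2.67-fold). Hmgcs1 read 1198 with CSA, 514 with anti-TCR alone, 128 with PKCi and 341 with Combo, against 335 with mock, again highest with CSA. Acly (-0.46), Nsdhl (-0.18) and Dhcr7 (-0.14) had the lowest log2 ratios of the list.

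Genes of the amino acid response and of growth also rose in part. Of 17 measured Atf4 targets and partners, 5 rose and 0 fell (median log2 ratio 0.68, and 0.02 without chip type A). Ddit4, an inhibitor of mTOR that is also counted among its brakes below, read 1249.7 with CSA, 301 with anti-TCR alone, 1727 with PKCi and 346 with Combo, against 415 with mock (3.01-fold), high with CSA and PKCi. Atf4 itself rose 2.77-fold and the amino acid transporter Slc7a5 2.48-fold, to 545 with CSA, 1046 with anti-TCR alone, 164 with PKCi and 509.7 with Combo, against 219.6 with mock. Its partner chain Slc3a2 (2.04-fold) and the glycyl-tRNA synthetase gene Gars (2.04-fold, and -0.77 on a second probe set), chosen after their values were seen, made up the 5. Of 13 glycolysis genes 2 rose, the enzymes Pgam1 (2.58-fold) and Tpi1 (2.42-fold), and 0 fell (median 0.64). Of 23 nucleolar genes of ribosome biogenesis 4 rose and 0 fell (median 0.36): Rrs1 read 630.4 with CSA, 687 with anti-TCR alone, 224 with PKCi and 274 with Combo, against 125 with mock (5.04-fold), and Nop2 (2.41-fold), Nop58 (f probe set, 2.33-fold) and Tsr1 (2.24-fold, chosen after its value was seen) rose less. Of 14 heat shock genes and chaperones 3 rose and 0 fell (median 0.31), namely the inducible Hsp70 gene Hspa1b (4.26-fold), the endoplasmic reticulum chaperone Hspa5 (3.27-fold) and the mitochondrial chaperone Hspa9 (2.58-fold). Of 12 translation initiation genes Eif1a (2.19-fold) and Eif3b (2.18-fold) rose and Eif4ebp2, an inhibitor of the cap-binding protein, fell 2.05-fold (median 0.38).

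**Figure D4:**
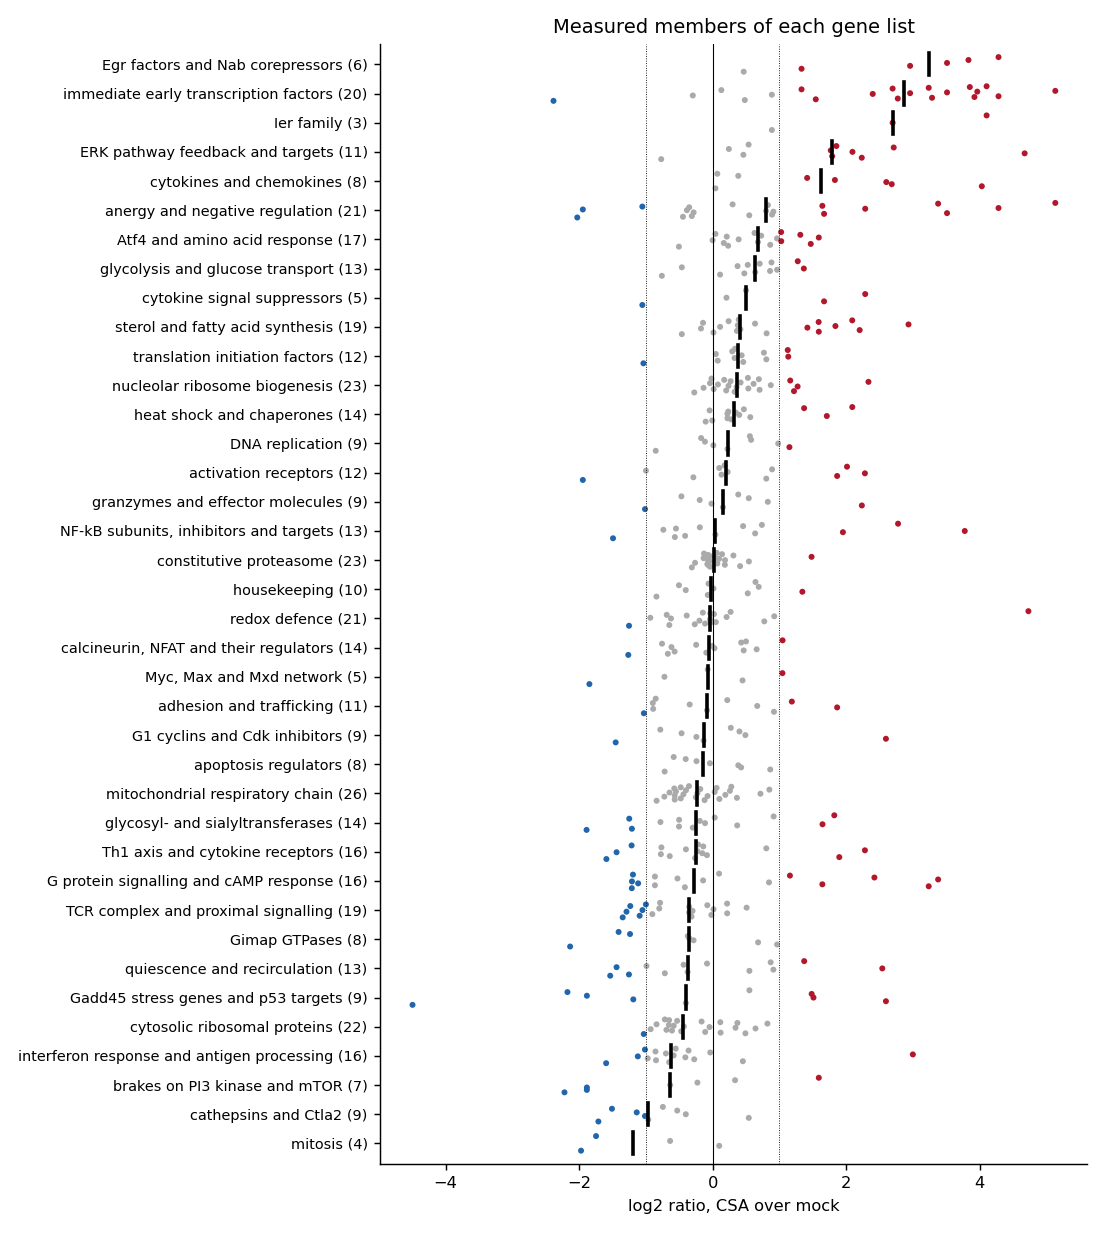
log2 ratio of CSA over mock for the measured members of each gene list with at least 3 of them (number in brackets), 1 point per gene, red at least 2-fold higher with CSA and blue at least 2-fold lower; black bars are medians, the solid line marks 0 and the dotted lines 2-fold, and a gene can be in several lists. The Egr, immediate early and Ier lists lie furthest right, and the cathepsin list (median -0.96) and the 4 mitosis genes (-1.19) furthest left.

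Genes lower with CSA included parts of the receptor machinery. Of 19 measured genes of the TCR complex and proximal signalling, 0 rose and 6 fell (median log2 ratio -0.35), against 7.81% of all measured genes that fell. The exchange factor Vav1 read 186 with CSA, 219 with anti-TCR alone, 149 with PKCi and 243 with Combo, against 474 with mock (2.55-fold lower). The kinase Prkcq read 113 with CSA, 190.4 with anti-TCR alone, 177 with PKCi and 198 with Combo, against 277 with mock (2.45-fold lower), and Ptprc, which encodes the phosphatase CD45, 658 with CSA, 1488 with anti-TCR alone, 836 with PKCi and 1324 with Combo, against 1548 with mock (2.35-fold lower). Prkcq and Ptprc were lowest with CSA, and Vav1 with PKCi. Cd2, an adhesion receptor, lay 2-fold lower, at the limit of the rule. Rasgrp1 (2.13-fold, and -0.39 on a second probe set) and the adaptor Fyb (2.07-fold), chosen after their values were seen, also fell. Lat (0.51), Fyn (0.22) and Csk (0.22) had the highest log2 ratios.

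Among 7 measured brakes on PI3 kinase and mTOR, 3 fell and Ddit4 rose (median log2 ratio -0.64). Pik3ip1, an inhibitor of PI3 kinase, read 201 with CSA, 122 with anti-TCR alone, 1361 with PKCi and 328 with Combo, against 936 with mock (4.66-fold lower) on an i probe set. Pdcd4, an inhibitor of translation initiation, read 388 with CSA, 327 with anti-TCR alone, 916 with PKCi and 559 with Combo, against 1432 with mock (3.69-fold lower). The sestrin Sesn1 read 95 with CSA, 70.2 with anti-TCR alone, 352 with PKCi and 173 with Combo, against 351 with mock (3.69-fold lower). All 3 were lowest with anti-TCR alone, next lowest with CSA, and closest to mock with PKCi. Of 13 genes of quiescence and recirculation 3 fell and 2 rose (median -0.38). The IL-7 receptor gene Il7r read 817 with CSA, 492 with anti-TCR alone, 1164 with PKCi and 744 with Combo, against 2215 with mock (2.71-fold lower), and the Schlafen genes Slfn2 (i probe set) and Slfn1 fell 2.9-fold and 2.39-fold. Foxo1 rose 2.59-fold, and Klf13 5.82-fold on its brightest probe set, with log2 ratios of 1.13 and -0.51 on its other 2. Mxd4, a Max partner that opposes Myc, read 853 with CSA, 268 with anti-TCR alone, 5412 with PKCi and 656 with Combo, against 3068 with mock (3.6-fold lower) on an s probe set, and its probe sets on chip types A (-1.84) and B (-1.19) also fell; it was higher than mock with PKCi.

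**Figure D5:**
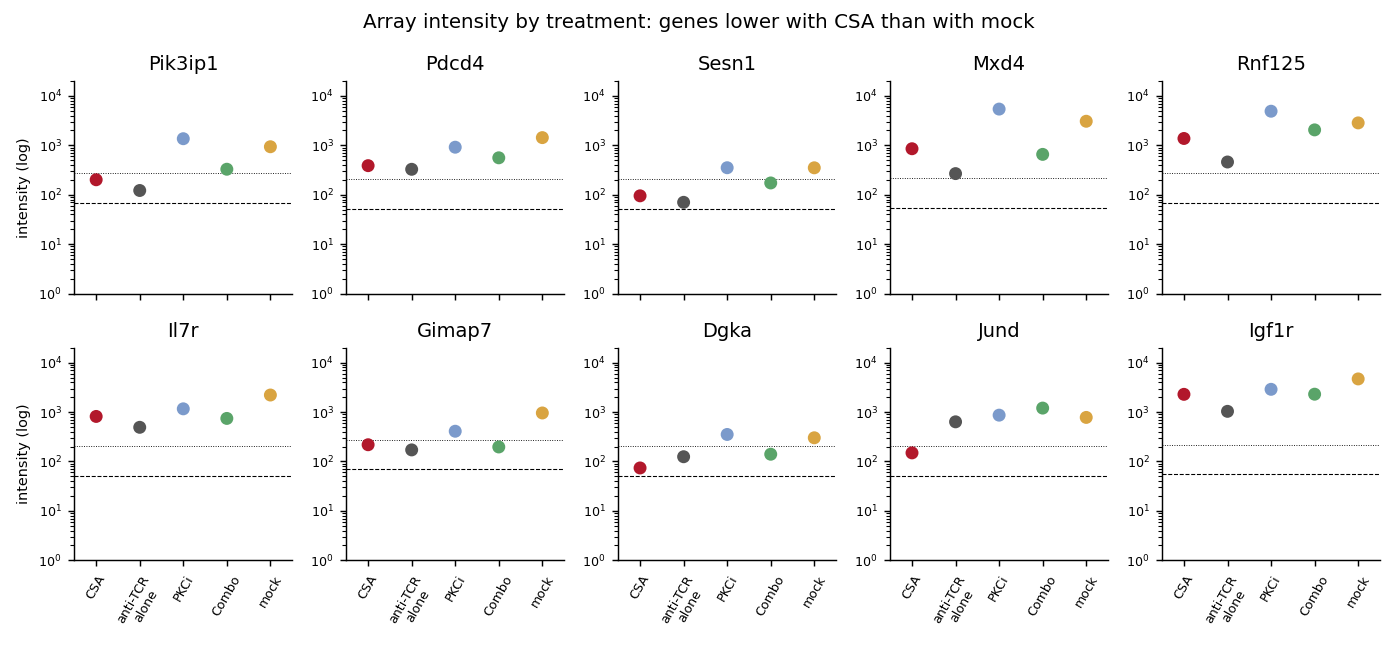
Array intensity (log scale) of 10 genes that were lower with CSA than with mock, 1 point per array, CSA at the left of each panel and mock at the right; the dashed line is the floor of the chip type and the dotted line 4 times the floor. The genes drawn were picked by hand from those named in the text. For Pik3ip1, Sesn1, Mxd4, Rnf125 and Dgka, PKCi lies near mock or above it, and CSA, anti-TCR alone and Combo lie lower. For Il7r, Igf1r, Pdcd4 and Gimap7, PKCi lies below mock and above CSA. Jund is low with CSA alone. Falls with PKCi near or below CSA, such as Plk3, Gpatch1 and Vav1, are not drawn.

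Interferon response and antigen processing genes mostly had negative log2 ratios: of 16 measured 14 were below 0, 3 fell and 1 rose (median -0.62). The immunoproteasome subunit Psmb9 read 262 with CSA, 207 with anti-TCR alone, 554 with PKCi and 722 with Combo, against 793 with mock (3.02-fold lower), and the GTPase Gbp3 (2.18-fold) and the peptide transporter Tap1 (2.02-fold) also fell. Irf8, a factor that interferon gamma induces, rose 7.99-fold, with 1181 with CSA, 1404 with anti-TCR alone, 112 with PKCi and 520.4 with Combo, against 148 with mock. Of 16 genes of the Th1 axis and cytokine receptors, Il2ra and the kinase Jak3 (s probe set, 3.72-fold) rose, and Il18r1 (3.01-fold), Il7r and Stat4 (2.32-fold) fell (median -0.25). Of 9 cathepsins and related genes 0 rose and 4 fell (median -0.96), Acp5 (r probe set, 3.28-fold), Ctsc (f probe set, 2.85-fold), Ctss (2.2-fold) and Ctsw (2.02-fold). Of 8 Gimap genes, which encode lymphocyte GTPases, 0 rose and 3 fell (median -0.36): Gimap7 read 218 with CSA, 172 with anti-TCR alone, 409.6 with PKCi and 197 with Combo, against 959.6 with mock (4.39-fold lower), and Gimap6 and Gimap4 fell 2.66-fold and 2.36-fold.

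Stress genes and targets of p53 went both ways, with 3 of 9 measured up and 4 down (median log2 ratio -0.40). Cdkn1a, the Cdk inhibitor p21, read 657 with CSA, 596 with anti-TCR alone, 148 with PKCi and 245 with Combo, against 109 with mock (6.04-fold; 2.38 on a second probe set), and Gadd45b (f probe set) and Mdm2 rose 2.85-fold and 2.79-fold, with a further probe set of Mdm2 at 0.16. Trp53inp1 fell 4.52-fold, to 124 with CSA, 226 with anti-TCR alone, 524 with PKCi and 626 with Combo, against 561 with mock, and Sesn1 fell as given above. Ccng1, cyclin G1, chosen after its value was seen, fell 2.28-fold. The largest fall of all, in Plk3, a stress-responsive polo-like kinase, rests on an r probe set that read 86.9 with CSA, 109 with anti-TCR alone, 111 with PKCi and 143 with Combo, against 1961 with mock (22.6-fold lower), so all 4 stimulated arms were low. The second largest, Gpatch1, also on an r probe set, read 186 with CSA, 1045 with anti-TCR alone, 185 with PKCi and 548 with Combo, against 3905 with mock (21-fold lower), with CSA and PKCi alike.

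The other large falls were of dim or suffixed probe sets in part. Galnt10 (r probe set) read 89.2 with CSA, 901 with anti-TCR alone, 672 with PKCi and 695 with Combo, against 643 with mock (7.21-fold lower), and Snrpb (r probe set) 113 with CSA, 106 with anti-TCR alone, 78.1 with PKCi and 39.5 with Combo, against 747 with mock (6.62-fold lower). Trgv4, a variable segment of the T cell receptor gamma locus, read 243 with CSA, 205 with anti-TCR alone, 700.3 with PKCi and 187 with Combo, against 1427 with mock (5.88-fold lower), with PKCi between mock and the other arms. Olfm3, Stk35os1 (i probe set) and Slc12a3 were lower with CSA by 5.82-fold, at least 5.75-fold and at least 5.28-fold, at mock values of 334, 316 and 367. Foxn4 (5.01-fold), Hmgb2 (r probe set, at least 4.81-fold), Usp35 (at least 4.75-fold), Pank4 (at least 4.75-fold) and Cd1d1 (4.73-fold), which presents lipids, had mock values between 246 and 333. Nudt16, brighter, read 479.5 with CSA, 556 with anti-TCR alone, 1079 with PKCi and 1041 with Combo, against 2283 with mock (4.76-fold lower), but a second probe set gave -0.08. Of the 445 genes that fell 19.6% were read on suffixed probe sets, against 17.9% of those that rose and 22.8% of all measured genes.

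The 22 genes that rose and 10 that fell at least 2-fold on every measured probe set of 2 or 3 chip types include the following. Ier5l and Baiap2, among the rises, are given above. Myo10, an unconventional myosin of filopodia, read 1721 with CSA, 961 with anti-TCR alone, 253 with PKCi and 639.9 with Combo, against 176 with mock (9.76-fold), and its log2 ratios on chip types B, A and C were 3.29, at least 2.62 and at least 2.50. Ece1, endothelin converting enzyme, rose 7.7-fold (2.43 on a second chip type), Trib1, a pseudokinase, 4.88-fold (at least 2.82), and Lrrc59, a ribosome-binding membrane protein, 7.75-fold, with 4 probe sets, the lowest at 1.15 and the highest at 3.61 or more. Among the falls, Mxd4 is given above. Rnf125, a ubiquitin ligase, read 1376 with CSA, 459.6 with anti-TCR alone, 4899 with PKCi and 2053 with Combo, against 2843 with mock (2.07-fold lower; -1.45 on a second probe set), and the receptor kinase Igf1r (f probe set) 2287 with CSA, 1035 with anti-TCR alone, 2889 with PKCi and 2302 with Combo, against 4689 with mock (2.05-fold), with 4 probe sets between -1.22 and -1.04. Ripor2 (r probe set, 3.1-fold), 4933431E20Rik (2.84-fold), Epsti1 (2.7-fold), Ing1 (2.22-fold) and the histone methyltransferase gene Prdm2 (2.09-fold) also belong to these falls.

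The CSA value can also be set beside anti-TCR alone for genes at least 4-fold from mock. With values raised to the floor, the 6 highest ratios of CSA to anti-TCR alone were those of Ier5l (22-fold), Ccl4 (9.16-fold), Lmna (6.52-fold), Slc46a3 (at least 5.61-fold), Metrnl (at least 5.06-fold) and Scrt1 (4.54-fold), and the bounds give no order. Lmna, which encodes lamins A and C, read 1130.2 with CSA, 173 with anti-TCR alone, 485 with PKCi and 245 with Combo, against 81.7 with mock on an s probe set, and its r probe set on chip type C gave 227 with CSA against 255 with mock. Scrt1, a zinc finger repressor, read 746 with CSA, 164 with anti-TCR alone, 994 with PKCi and 433 with Combo, against 164 with mock (4.54-fold above mock), and Metrnl, a secreted protein, 351 with CSA, 63.9 with anti-TCR alone, 108 with PKCi and 17.2 with Combo, against 67.3 with mock (at least 5.06-fold). The 6 smallest, counted the same way, were those of Galnt10 (10.1-fold lower with CSA than with anti-TCR alone), Slc12a3 (at least 6.48-fold lower), Olfm3 (6.23-fold lower), Egr2 (5.71-fold lower), Gpatch1 (5.63-fold lower) and Stk35os1 (at least 4.95-fold lower). Of these 6, Egr2 was the gene above mock with CSA, and the others lay below mock.

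Other lists held few changed genes; the last value in brackets for each is its median log2 ratio. Of 26 respiratory chain genes 0 rose and 0 fell (median log2 ratio -0.24), of 23 constitutive proteasome genes 1 rose, Psmd3 (2.79-fold), and 0 fell (0.02), of 10 housekeeping genes 1 rose, Tubb5 (f probe set, 2.54-fold), and 0 fell (-0.03), and of 22 cytosolic ribosomal protein genes 1 fell, Rpl8 (2.05-fold) (-0.45). Of 8 apoptosis regulators 0 changed (-0.14). Of 9 granzyme and effector genes 1 rose and 1 fell (0.15); granzyme B (Gzmb) read 2141 with CSA, 2021 with anti-TCR alone, 499 with PKCi and 477 with Combo, against 455 with mock (4.71-fold). Cell cycle genes were mostly not bright: of 9 G1 cyclin and Cdk inhibitor genes Cdkn1a rose and Rbl2 fell 2.74-fold (-0.14), of 9 replication genes Gins1 (f probe set, 2.22-fold) rose and 0 fell (0.22), and of 4 mitosis genes Kif15 (f probe set, 3.92-fold) and Mad2l1 (3.36-fold) fell. Of 5 genes of the Myc network Mxi1 rose 2.06-fold and Mxd4 fell (-0.08). Of 11 adhesion genes Cd44 and Itgb7 (2.27-fold) rose and Cd96 (2.04-fold) fell (-0.08), and of 14 glycosyltransferases Galnt3 (3.53-fold; 0.68 on a second probe set) and Mgat2 (3.13-fold) rose, and St8sia4 (3.7-fold), Fut7 (s probe set, 2.38-fold) and St3gal6 (2.31-fold) fell (-0.25).

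Markers were read to check the labelled cell type. Of 8 CD4 T helper markers on the arrays 6 were measured, and only Cd2 fell by the 2-fold rule. Their median log2 ratio was -0.55, and 5 of the 6 lay below 0. Cd4 (616 with CSA against 610 with mock) and Cd3e (666 with CSA against 704 with mock) were the most level. A second probe set of Cd3e gave -0.38. Thy1 read 1775 with CSA against 3212 with mock, Cd3d 603 against 1050 and Cd3g 2085 against 2570. The values of the 8 CD4 T helper markers summed to 6319 with CSA and 9187 with mock. Of 13 B cell and antigen presentation markers and 10 erythroid and neutrophil markers 0 were measured in either array. Among 18 markers of macrophages and dendritic cells 2 were measured, Cd14 (-0.02 on the log2 scale) and Ctss, which fell, and the defining markers Lyz2, Itgam and Csf1r lay below the floor in both arrays. The 18 values summed to 1469 with CSA and 2195 with mock, of which Ctss alone made up 719 with CSA and 1583 with mock. The part of other cells in the falls of the cathepsin list was not tested. Of 8 CD8 T and NK markers 4 were measured and 0 passed the 2-fold rule, with log2 ratios of 0.55 for Klrc1, -0.67 for Klre1, -0.81 for Klrd1 and -0.91 for Klrk1. These 4 were bright: in that order they read 1956, 700, 2320 and 585 with CSA, against 1333, 1115, 4063 and 1099 with mock. The 8 values summed to 5581 with CSA and 7628 with mock, and 4 of them lay at or below the floor in both arrays. Cd8a read 3.7 with CSA against 4.7 with mock. In pooled RNA of a culture, fewer cells that express a gene and less RNA per cell cannot be told apart.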

How the data were processed

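Messenger RNA of A.E7 cells, pooled over 2, 4 and 6 h, was read on oligonucleotide arrays. The deposited values are array intensity on a linear scale, 1 value per probe set, used as the authors deposited them; the software and scaling are not given in the sources used here. The 5 arrays of a chip type have nearly equal trimmed means. Groups came from the array titles. Of 36701 probe sets 29131 carry 1 symbol in the platform annotation, 724 several and 6846 none; 29044 matched a current gene table by gene identifier, which changed 0 symbols.

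The floor, the minimum of 4 times the floor, the gene rule and the 2-fold rule are given with the results (Python 3.11.15, numpy 2.4.6, pandas 2.3.3). No count carries a test, since no treatment was read more than once on a chip type. Steps were tested on simulated data. The members, the naming rule and 44 gene lists were chosen with earlier results of these data known. A list need not hold every gene of its family. Named were the 15 highest and 15 lowest genes whose further measured probe sets had the same sign, the 8 highest and 8 lowest that changed on 2 or 3 chip types, the 3 highest and 3 lowest of each list, the Egr, Nab, Nr4a and Ier genes, the calcineurin and NFAT genes, the 6 largest and 6 smallest ratios of CSA to anti-TCR alone among genes at least 4-fold from mock, and Ifng, Il2, Tnf, Ccl3, Ccl4, Xcl1 and Cd8a. Not every gene that this rule names is described in the text.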

Additional observations from a re-analysis of the deposited data

Results flagged for a closer look

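Probe sets that carry no gene symbol take no part in the gene counts, and 3 of them stood far above mock with CSA. These are the highest log2 ratios among the 1132 measured probe sets without a symbol, of which 83 (7.33%) rose and 66 (5.83%) fell. Probe set 141035_i_at read 2073.6 with CSA, 1825 with anti-TCR alone, 157 with PKCi and 379 with Combo, against 73.7 with mock, on an i-suffixed probe set. Probe set 97519_at read 2859 with CSA, 3175 with anti-TCR alone, 92.4 with PKCi and 2409 with Combo, against 122.5 with mock. Probe set 133469_at read 775.7 with CSA, 47.6 with anti-TCR alone, 1018 with PKCi and 181 with Combo, against 57 with mock, so it was high with CSA and PKCi. Their genes are not named here, and their log2 ratios were 4.81, 4.54 and 3.77.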

How the results depend on the processing

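No paired analysis was possible because no treatment was read more than once on a chip type. With 2 times the floor, 150 probe sets were at least 4-fold higher and 26 at least 4-fold lower, and 13 genes at least 4-fold lower. With 8 times the floor as minimum, fewer probe sets entered: 462 rose and 354 fell, 150 and 26 at least 4-fold, and 303 genes rose and 269 fell, 13 at least 4-fold lower. With no minimum, 1378 probe sets rose and 1210 fell, and 705 genes fell. Without chip type A, 498 probe sets rose and 390 fell, 150 and 40 at least 4-fold, and 293 genes rose and 267 fell, 85 at least 4-fold higher. Without chip type B, 435 probe sets fell and 21 genes were at least 4-fold lower, and without chip type C, 38 probe sets were at least 4-fold lower. Leaving out a chip type or raising the minimum leaves fewer probe sets to count. Rises made up 52.6% of the changed genes as reported and 49.9% to 54.9% over the alternatives, so neither direction prevails under every one of them. Of 141 named genes with a change, 127 stayed at least 2-fold from mock under every alternative in which they were still measured, and 14 (Cd2, Cd96, Creb1, Ctsc, Ctsw, Egr4, Igf1r, Lmna, Mdm2, Nr4a1, Pde7a, Ppp3r1, Rpl8, Tap1) did not. Several alternatives could not undo a 2-fold change. With a minimum of 4 floors, a floor of 0.5 or 2 times keeps every such change, and another minimum leaves the ratio as it is. Genes left without a measured probe set were skipped, and every alternative reads the same arrays. Lmna (-0.17) and Ppp3r1 (-0.26) reversed without chip type A, where another probe set is read, and Nr4a1 gave 0.46 there. The list medians ranged from 2.40 to 3.85 for the immediate early factors, 0.68 to 1.94 for ERK feedback, 0.24 to 1.42 for sterol synthesis and -0.92 to -0.32 for the TCR complex. The quiescence median turned to 0.23 without suffixed probe sets and 0.67 without chip type A, the ribosomal protein median to 0.23 without chip type A, the G protein median to 0.84 and the stress gene median to 0.55 with 8 times the floor (0.07 without chip type B). The Atf4 median was 0.02 without chip type A. The Myc network median (-0.08) turned to 0.45 without chip type C and 0.12 with no minimum, the G1 cyclin median (-0.14) to 0.07 without suffixed probe sets, without chip type B and without chip type C, and the NF-kB median (0.04) to -0.08 without chip type A and with each gene read as the mean of its measured probe sets. With no minimum the apoptosis median turned to 0.09, replication to -0.04, granzymes to -0.02 (also with quantile normalization) and calcineurin to 0.01 (0.03 with 8 times the floor). The housekeeping median turned to 0.10 with quantile normalization and 0.01 with median scaling or 8 times the floor, and the proteasome median to just under 0 without suffixed probe sets. These causes were not tested.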
